A study of Mus musculus with 3 samples.

Results

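The IFIT family and the ISG15 conjugation pathway were examined in Hepa1c1c7 cells, a mouse hepatoma line, after transfection with an empty vector, an Mst1r vector or an Slpi vector. The members were 10 interferon-stimulated genes, taken by name and matched to probes through the RefSeq accession of each probe, out of 22908 genes with a symbol. They were the RNA-binding proteins Ifit1, Ifit2 and Ifit3, the ubiquitin-like modifier Isg15, the enzymes that attach or remove it (Uba7, Ube2l6, Herc6 and Usp18), and the antiviral effectors Rsad2 and Ifi44. Each is given below with the RefSeq accession of its probe. Together they had 11 of the 56605 non-control probes on the array. The genes were chosen by name, as a family and a pathway, with the log2 differences between these same 3 arrays already known, so their values are a description and no test was made on them.

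The study used the cells to follow gene expression after overexpression of Mst1r, a receptor tyrosine kinase, or Slpi, a secreted protease inhibitor. The empty vector group received pCMV6-Kan/Neo without an insert, the Mst1r vector group an Mst1r coding clone, and the Slpi vector group an Slpi coding clone. Each culture was transfected with 2 µg of vector and grown for 24 h, per the methods, and 100 ng of RNA was labelled with a single dye. Each group was 1 sample of 1 cell line on 1 array, so no difference below has a replicate check, and no p-value can be given. A higher level of the transfected gene was not measured on the array labelled with it, for Mst1r or for Slpi, so each group name below means the array labelled so. All groups went through transfection, and cells without transfection were not analysed here.

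Type I interferons bind a receptor that activates the kinases Jak1 and Tyk2, which phosphorylate transcription factors of the STAT family. These join Irf9 to form the factor ISGF3, which binds the interferon-stimulated response element (ISRE) in the promoters of its target genes. IFIT proteins bind foreign RNA and hinder its translation. Isg15 is coupled to other proteins by an enzyme chain like that of ubiquitin, with Uba7 as activating enzyme, Ube2l6 as conjugating enzyme and, in the mouse, Herc6 as the main ligase. Usp18 removes Isg15 again and also dampens signalling at the interferon receptor.

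The promoter sequences are shown because the members share a pathway known to act through the ISRE. The members were chosen as interferon-stimulated genes, so the motif is not independent of that choice. Its share among them is a description and no test. RefSeq promoters (GRCm38.p6), each 300 bases long with 250 bases before and 50 after the transcription start, were found for 9 of the 10 members, in 10 windows. They were searched on both strands for the ISRE core, taken as 2 copies of GAAA on the same strand with a gap of any 2 bases. Each printed stretch ends at the base before the start and is written along the gene. Capitals mark the ISRE core on either strand, whose copies read TTTC when the match lies on the opposite strand.

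Ifit1 (chr19:34640769-34640888, plus strand, 120 bases): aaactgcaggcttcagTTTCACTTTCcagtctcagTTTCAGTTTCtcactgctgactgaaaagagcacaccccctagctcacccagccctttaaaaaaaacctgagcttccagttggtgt
Ifit3 (chr19:34583349-34583528, plus strand, 180 bases): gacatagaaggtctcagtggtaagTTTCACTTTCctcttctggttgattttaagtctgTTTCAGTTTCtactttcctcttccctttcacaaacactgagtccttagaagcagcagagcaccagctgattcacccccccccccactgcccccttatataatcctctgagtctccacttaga
Isg15 (chr4:156200819-156200938, minus strand, 120 bases): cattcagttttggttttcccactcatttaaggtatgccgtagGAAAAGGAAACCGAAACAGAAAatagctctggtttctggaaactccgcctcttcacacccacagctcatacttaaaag
Rsad2 (chr12:26456453-26456572, minus strand, 120 bases): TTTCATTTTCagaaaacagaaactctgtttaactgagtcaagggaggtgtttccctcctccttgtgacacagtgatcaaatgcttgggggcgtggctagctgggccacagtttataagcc
Ifit2 (chr19:34550574-34550693, plus strand, 120 bases): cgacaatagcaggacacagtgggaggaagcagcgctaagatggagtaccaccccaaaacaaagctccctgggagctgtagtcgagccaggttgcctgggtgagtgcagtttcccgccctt
Herc6 (chr6:57580872-57580991, plus strand, 120 bases): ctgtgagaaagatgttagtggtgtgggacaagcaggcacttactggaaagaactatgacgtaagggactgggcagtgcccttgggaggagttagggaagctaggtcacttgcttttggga

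The ISRE core was present in 4 of the 9 members with a promoter, Ifit1, Ifit3, Isg15 and Rsad2. It was present in 3.44% of all 32851 mouse promoters of the same length, and in 3.99% of their 27025 genes. In Ifit1 the 2 cores began 104 and 85 bases before the start. In Ifit3 the 2 cores began 156 and 122 bases before it. Isg15 had 3 overlapping cores, the first beginning 78 bases before the start, and they form the single capital run of that sequence. Rsad2 had 1 core, beginning 120 bases before the start. Ifit2, with 2 start sites, had no match in either window, and Herc6, Uba7, Ube2l6 and Ifi44 had none.

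A pair of shorter or related motifs was searched in the same way. The motif AANNGAAA, shared by interferon regulatory factors (IRF), lies within every ISRE core and is therefore counted again with it. It was found in 6 of the 9 members, in 23.9% of all promoters and in 26.7% of their genes. Uba7 and Ifi44 had this IRF motif without the full core, with 3 copies in Ifi44. The GAS motif TTCNNNGAA, known from genes that respond to interferon gamma, was found in 1 member, Ifit2, 241 bases before its first start. It was found in 8.30% of all promoters and in 9.55% of their genes. A match is a description of the letters in the window, and binding was not measured here.

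**Figure D1:**
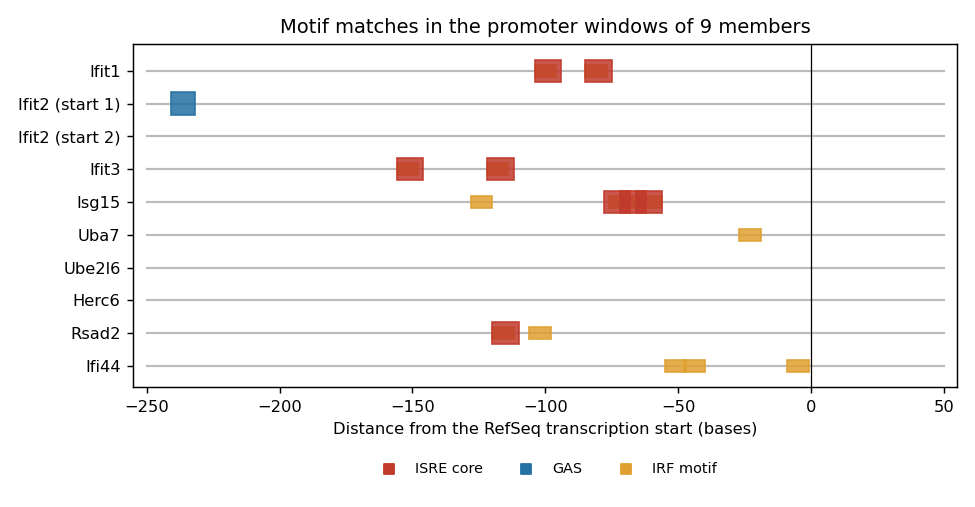
Positions of motif matches in the 10 RefSeq promoter windows of 9 members, as distance in bases from the transcription start (vertical line), with coloured boxes for the ISRE core, the GAS motif and the IRF motif, drawn smaller. Ifit1, Ifit3, Isg15 and Rsad2 carry ISRE cores within 156 bases before the start, whereas Ube2l6, Herc6 and the second start of Ifit2 carry no box.

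The processed signal is the background-subtracted spot intensity on a linear scale, before scaling between arrays. All 11 member probes were well above background on all 3 arrays by the scanner's own flag, and each was printed on 1 spot. Log2 differences below were taken after the 75th percentile of each array was subtracted. The ± after a difference is the SD that repeated spots of 1 array give for such a difference at that signal level, and it covers no variation between cultures. Signals of different genes come from different probes and were not compared with each other.

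Among the IFIT genes, Ifit3 (NM_010501), a partner protein that assembles with other IFIT proteins, gave signals of 462, 1365 and 389 on the empty, Mst1r and Slpi vector arrays. It was brightest with Mst1r vector, and the arrays with empty and Slpi vector lay close together. The scaled log2 difference of Mst1r vector from empty vector was 1.79 ± 0.13, or 3.47-fold. Of the 19238 features well above background on all 3 arrays, 127 (0.660%) were at least as far above 0 in that comparison. Fewer cells that express a gene and less RNA per cell cannot be told apart in these bulk samples.

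Ifit1 (NM_008331), which binds RNA whose cap lacks ribose methylation, gave 830, 1584 and 704 in the same order. Ifit2 (NM_008332), which binds AU-rich RNA and is linked to cell death, gave 269, 468 and 231. In both genes the Mst1r vector array was again the brightest and the Slpi vector array the dimmest. Relative to empty vector, the Mst1r vector array lay at a log2 difference of 1.16 ± 0.13 for Ifit1 and 1.03 ± 0.15 for Ifit2. The share of features at least as high was 1.69% and 2.04%. With Slpi vector the 3 IFIT genes lay between -0.17 and -0.14 from empty vector. Under scaling to the median of all probes, these Slpi values for Ifit1 and Ifit2 lay above 0, at up to 0.02, whereas none of the scalings turned the sign with Mst1r vector.

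Isg15 (NM_015783) itself gave signals of 16427, 20149 and 13793 on these arrays. The order of the arrays was that of the IFIT genes, with a smaller distance between them. The log2 difference of Mst1r vector from empty vector was 0.52 ± 0.08, or 1.44-fold, and that of Slpi vector was -0.17 ± 0.11. Of the 19238 features well above background, 6.55% were at least as high with Mst1r vector. Of 948 features in the same rows of the array and within 2-fold of its signal, the share was 1.58%.

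The enzymes that attach Isg15 were nearer to 0 with Mst1r vector than Isg15 itself. Uba7 (NM_023738), the activating enzyme, gave 510, 536 and 489 with empty, Mst1r and Slpi vector. Its log2 difference from empty vector was 0.30 ± 0.14 with Mst1r vector and 0.02 ± 0.14 with Slpi vector. These 3 signals were close together, and the second difference was smaller than the error between spots. Ube2l6 (NM_019949), the conjugating enzyme, gave 1581, 1440 and 1246. Its log2 difference was 0.10 ± 0.12 with Mst1r vector and -0.27 ± 0.12 with Slpi vector. For Ube2l6 the Mst1r value was within the error between spots, and its sign turned to -0.14 without scaling.

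Herc6 (NM_025992), the ligase, gave signals of 671, 575 and 343 on the empty, Mst1r and Slpi vector arrays. The empty and Mst1r vector arrays were alike after scaling, with a log2 difference of 0.01 ± 0.14, and the Slpi vector array was the low one. The log2 difference of Slpi vector from empty vector was -0.89 ± 0.14, which is 1.85-fold lower. Of the 19238 features well above background, 0.764% were at least as low. Among 1410 features in the same rows with a like signal the share was 0.142%, and their differences had an SD of 0.20. Under the normexp background correction the value was -0.58, just short of 1.5-fold, and over the 11 alternatives that keep its probe it ran from -1.13 to -0.58. The value rests on a single spot in row 19.

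Usp18 (NM_011909), the protease that removes Isg15, gave 7209, 7833 and 6196. Relative to empty vector it lay at 0.35 ± 0.13 (log2) with Mst1r vector and at -0.14 ± 0.13 with Slpi vector. The order of the arrays was that of Isg15. Over the 4 enzymes, the median log2 difference was 0.20 with Mst1r vector and -0.20 with Slpi vector. Over the 3 IFIT genes the Mst1r median was 1.16.

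Rsad2 (NM_021384), or viperin, makes a nucleotide that ends viral RNA chains, and it had 2 probes. On the brighter one the signals were 342, 906 and 258 for the empty, Mst1r and Slpi vector arrays. The dimmer probe gave 55.1, 114 and 48.7. Both probes were highest with Mst1r vector and lowest with Slpi vector. The log2 difference of Mst1r vector from empty vector was 1.64 ± 0.14 on the brighter probe and 1.29 ± 0.42 on the dimmer one. The Slpi differences were -0.33 ± 0.14 and -0.10 ± 0.53. The dimmer probe lay in row 283, whereas the brighter one lay in row 130, close to the border of the upper rows treated further on.

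Ifi44 (NM_133871), a cytoplasmic protein induced by interferon, gave 570, 650 and 478. Relative to empty vector it lay at 0.42 ± 0.14 (log2) with Mst1r vector and at -0.18 ± 0.14 with Slpi vector. Ifi44 was thus nearer to Isg15 and Usp18 than to Rsad2 in the Mst1r difference. The Slpi differences of these genes overlapped within the error between spots and give no such order.

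**Figure D2:**
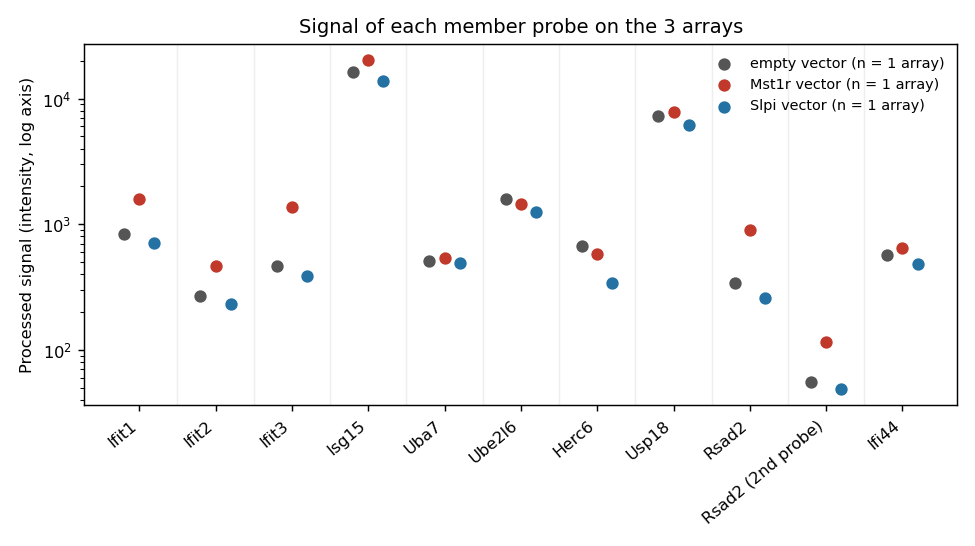
Processed signal (intensity, log axis) of the 11 member probes on the empty vector, Mst1r vector and Slpi vector arrays, 1 point per array. The Mst1r vector array is the brightest for the IFIT genes, Isg15, Uba7, Usp18, Rsad2 and Ifi44. Herc6 stands at 671 on the empty and 343 on the Slpi vector array.

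Counted over the members, 4 of 10 (Ifit1, Ifit2, Ifit3 and Rsad2) were higher with Mst1r vector than with empty vector by 1.5-fold or more. That size was reached by 7.07% of the 18018 features with a signal over 50 on the brighter array of the pair. The same 4 members were also at least 2-fold higher, a size reached by 4.35% of features. Of features well above background on all 3 arrays, as all members were, 5.52% and 2.14% reached these 2 sizes. All 10 lay above 0, as did 42.3% of features, although Herc6 and Ube2l6 lay below 0 without scaling and with spike-in scaling. The median of the members was 0.47, and that of the features was -0.04.

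With Slpi vector, 0 of 10 members were at least 1.5-fold higher than with empty vector, a size reached by 3.4% of features. Herc6 was the 1 member at least 1.5-fold lower, against 3.92% of features. Of features well above background on all 3 arrays, 1.49% were that much higher and 1.62% that much lower. Of the 10 members, 9 lay below 0, as did 49.7% of features. The median of the members was -0.17, and that of the features was 0.0010. The spike-in controls, added in equal amount at labelling, differed between these arrays by 0.24 after scaling, more than the members' median in size. Under median scaling 4 of the 10 members lay above 0, while the median of all features lay at 0.17 and that of the members at -0.0064.

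The arrays with Mst1r and Slpi vector were also compared directly. Of the 10 members, 7 were higher with Mst1r vector by 1.5-fold or more (Ifit1, Ifit2, Ifit3, Isg15, Herc6, Rsad2 and Ifi44), against 7.15% of features. Of these, 4 were at least 2-fold higher, against 4.18% of features. Of features well above background on all 3 arrays, 5.74% and 2% reached these sizes. Ifit3 and Rsad2 both differed by 1.96, and Herc6 by 0.90 ± 0.14. The smallest difference was that of Uba7, 0.29 ± 0.14. All 3 comparisons are built from the same 3 arrays, so they are not independent of each other.

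**Figure D3:**
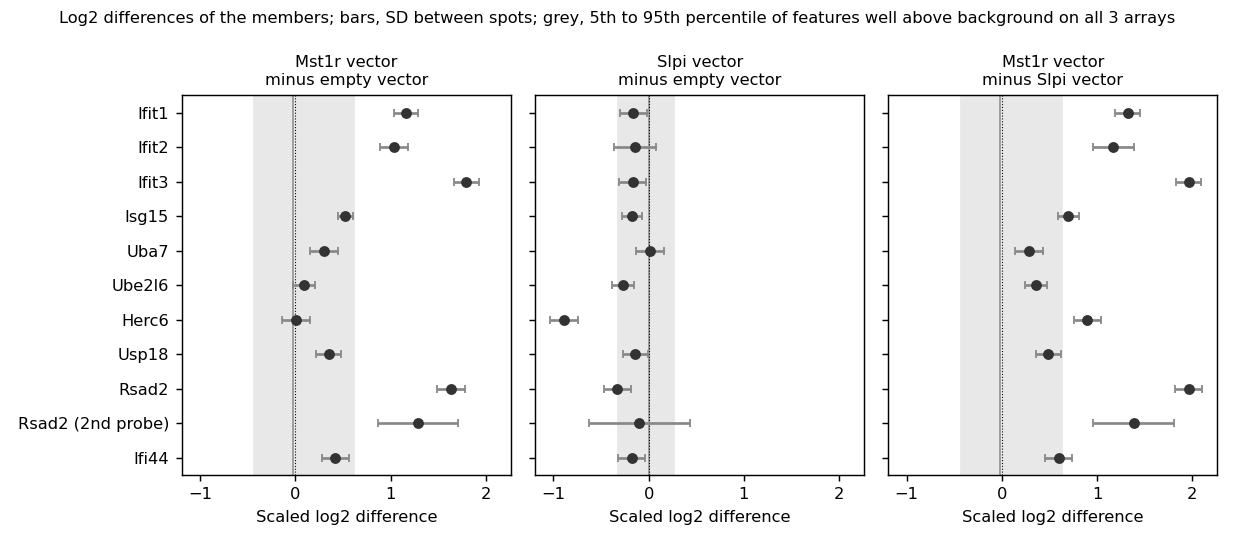
Scaled log2 differences of the 11 member probes in the 3 comparisons, with bars for the SD between spots, a grey band from the 5th to the 95th percentile of 19238 features well above background on all arrays, and a grey line at their median. With Mst1r vector the 3 IFIT genes and both Rsad2 probes lie right of the band, which ends at 0.62, and with Slpi vector Herc6 at -0.89 and the brighter Rsad2 probe at -0.33 lie left of it, where it starts at -0.32.

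**Figure D4:**
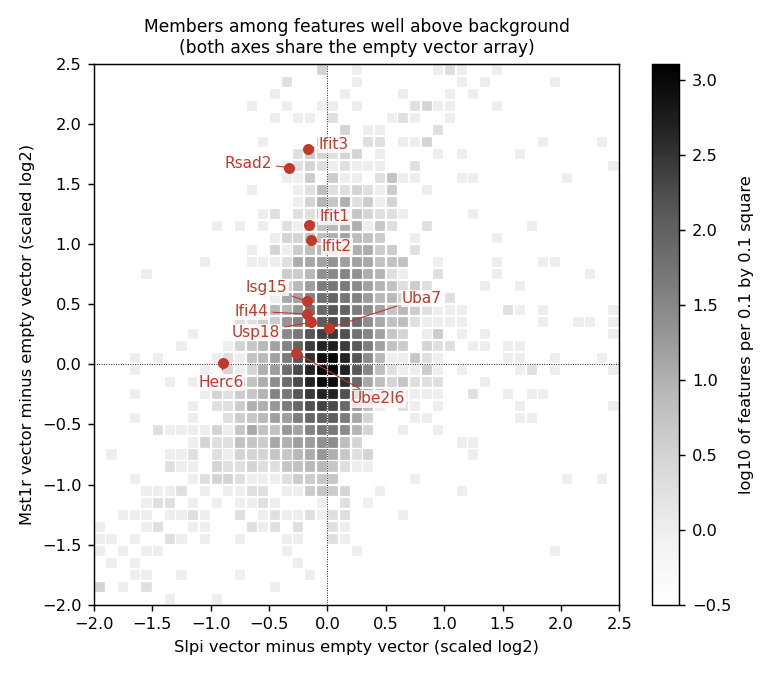
Log2 difference of Mst1r vector from empty vector (vertical axis) against that of Slpi vector from empty vector (horizontal axis), with grey squares shaded by the log10 number of features and red points for the 10 members. Both axes contain the empty vector array, and 109 of 19238 features lie outside the plotted range. Ifit3 stands at 1.79 and -0.17, and Herc6 at 0.01 and -0.89.

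Position on the array was recorded because features in its upper rows, which held 33.7% of the probes, differed more between arrays. Of features well above background on all arrays, 6.80% in the upper rows and 1.19% in the lower rows were 1.5-fold or more apart, in either direction, between Slpi vector and empty vector. Between Mst1r vector and empty vector the shares were 11.4% and 6.43%. Ifit1, Ifit2, Ifit3 and Herc6 lay in the upper rows, and the other 6 members below them. In the lower rows, 1 of 6 members (Rsad2) was higher by 1.5-fold or more with Mst1r vector than with empty vector, against 4.77% of the 12680 features well above background there. The median of these 6 was 0.38. For each IFIT gene, all features of the upper rows within 2-fold of its signal with empty vector were taken. Of these, 0.434% were at least as high as Ifit3 with Mst1r vector, 0.831% as Ifit1 and 2.40% as Ifit2. The differences of those features had an SD of 0.43 for Ifit3, 0.30 for Ifit1 and 0.55 for Ifit2, larger than the error between spots. The same held in the lower rows, for features within 2-fold of each member's signal. There the SD was 0.38 for Rsad2, 0.36 for Uba7, 0.35 for Ifi44, 0.26 for Ube2l6, 0.21 for Usp18 and 0.20 for Isg15. The part of array position in the values of the IFIT genes was not tested otherwise.

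Further IFIT genes gave a second reading outside the upper rows. Ifit3b, a near copy of Ifit3, had its probe in row 170 and gave 426, 1131 and 342 on the empty, Mst1r and Slpi vector arrays. The log2 difference with Mst1r vector was 1.64 ± 0.13. Near-identical transcripts can bind both probes, so the signals of Ifit3 and Ifit3b cannot be told apart with certainty. Ifit1bl2, an Ifit1 relative, gave 198, 198 and 182, a difference of 0.23 ± 0.27 with Mst1r vector. Ifit1bl1 was well above background on none of the arrays. Of the 2 measured genes of this list, 1 was higher by 1.5-fold or more with Mst1r vector and 0 with Slpi vector, against 7.07% and 3.4% of all features.

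Ifit1bl2 is transcribed away from Ifit1, and the window of its first start shares with that of Ifit1 the same pair of ISRE cores. In that Ifit1bl2 window they begin 70 and 51 bases before its start, on the strand of that gene. A second Ifit1bl2 start had no core in its window. Ifit1bl1, without a signal well above background, had 1 core in each of its 2 windows. The log2 difference with Mst1r vector was 1.16 for Ifit1 and 0.23 for Ifit1bl2. The Ifit3b window also held 2 ISRE cores, 188 and 154 bases before its start.

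Other ligases for Isg15, and genes near or related to the members, were measured alongside. Trim25 had a log2 difference of 0.20 ± 0.13 and Arih1 of -0.10 ± 0.12 with Mst1r vector. With either vector 0 of these 2 ligases was 1.5-fold higher, against 7.07% (Mst1r vector) and 3.4% (Slpi vector) of all features. Of 5 neighbours and relatives, 4 were measured, and 1 was higher by that size with Mst1r vector, against 7.07% of all features. It was Ifi27l2a, a small interferon-induced protein, with signals of 3641, 5588 and 4133 and a difference of 0.85 ± 0.12. Its relative Ifi27 was the lowest of the list, at -0.21 ± 0.08. Ifi44l, the relative of Ifi44, was well above background on none of the arrays.

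Among 10 genes of interferon ligands, 9 had a probe and 4 had a signal over 50 with Mst1r or empty vector. Of these 4, 1 passed 1.5-fold with Mst1r vector, against 7.07% of all features. It was Ifnb1, which encodes interferon beta, with signals of 144, 383 and 122 on the empty, Mst1r and Slpi vector arrays, the order seen for the IFIT genes. The log2 difference was 1.64 ± 0.22 with Mst1r vector and -0.16 ± 0.27 with Slpi vector. Its probe lay in row 207. Ifnl3, an interferon lambda, had the lowest difference of the 4, at 0.13 ± 0.53, and Ifna4 was well above background on none of the arrays.

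The receptor chains, parts of ISGF3 and their regulators were measured as well. Of 11 such genes, 4 were higher than with empty vector by 1.5-fold or more with Mst1r vector and 0 with Slpi vector, against 7.07% and 3.4% of all features. At the top was Socs3, a feedback inhibitor of cytokine receptors, with signals of 2267, 6543 and 2147. Its log2 difference was 1.76 ± 0.12 with Mst1r vector. Socs1, Irf1 and Stat2 were the other 3, at 1.48, 0.95 and 0.79. The Irf1 and Stat2 probes lay in rows 1 and 77, within the upper rows, where features differed more between arrays. Those of Socs3 and Socs1 lay in rows 155 and 208. A second, dimmer Irf1 probe in row 383 gave 1.04 ± 0.27. A second, dim Stat2 probe went the other way, from 64.5 with empty vector to 19.4 with Mst1r vector, where it was not well above background. The lowest was the receptor chain Ifnar2, at -0.16 ± 0.12. The median over the 11 genes was 0.35 with Mst1r vector and 0.02 with Slpi vector.

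**Figure D5:**
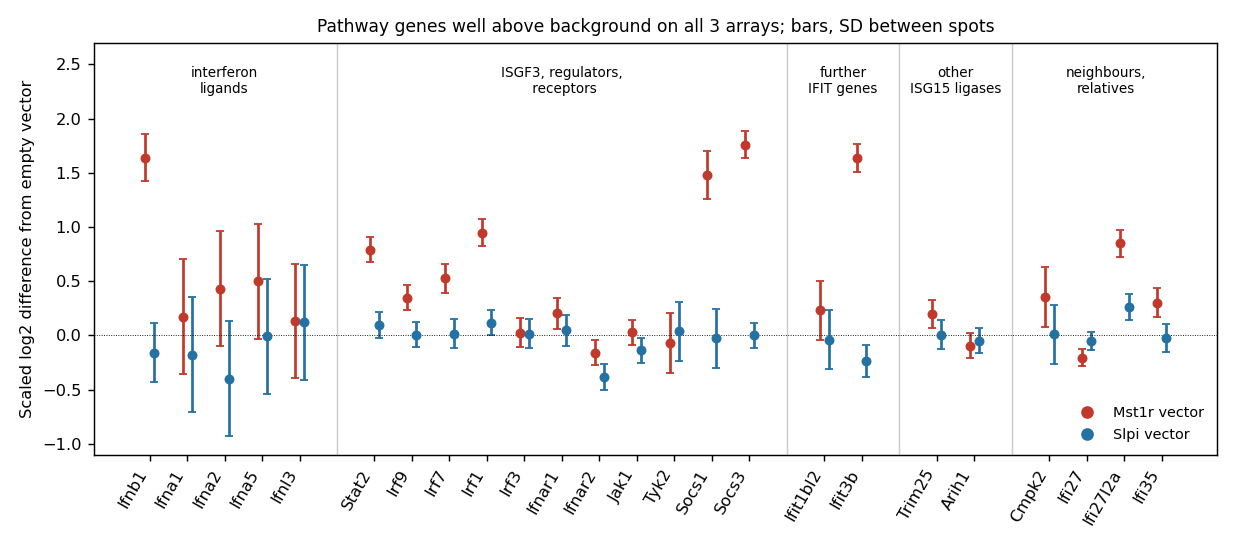
Scaled log2 difference from empty vector of pathway genes whose used probe was well above background on all 3 arrays, by role, for Mst1r vector (red) and Slpi vector (blue), with bars for the SD between spots. Ifnb1 at 1.64, Socs3 at 1.76, Socs1 at 1.48 and Ifit3b at 1.64 are the highest red points, and the blue points lie between -0.40 and 0.26.

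The transfected genes and the cell type were checked on the same arrays. The Mst1r probe was well above background on none of the arrays, at 4.15, 4.08 and 3.70, and whether it lies in the transfected coding sequence was not determined. Slpi gave 6459, 3843 and 6680, with a log2 difference of 0.13 ± 0.13 between Slpi vector and empty vector. A second, dimmer Slpi probe gave 106, 91.7 and 85.8, a difference of -0.23 ± 0.27. Neither Slpi probe was higher on the array labelled Slpi vector by more than the error between spots. Whether either lies in the transfected coding sequence was also not determined, so these probes cannot settle whether that label is right. The paper reports overexpression of Mst1r in these cells by real-time PCR, and such levels were not analysed here. Of 8 hepatocyte markers, Afp, Alb, Apoa2 and Trf were well above background on all arrays, Ahsg on none and the other 3 on some, and the summed signal ran from 61416 to 76143. Of 7 leukocyte markers, 5 were well above background, whereas Ptprc and Adgre1 were so on no array, and the summed signal was 6918, 7121 and 6842. All 4 fibroblast markers and 1 of 4 endothelial markers were well above background, with summed signals of 34805 to 48360 and 34.9 to 48.9. These sums are of unscaled signals, and the lowest hepatocyte and fibroblast sums were those of the Mst1r vector array. The 75th percentile of that array was 229, against 268 with empty vector. Trf and Dcn alone gave 48573 and 41199 with empty vector. The part of the marker levels in the members' differences was not tested.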

How the data were processed

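Gene expression was measured on 3 single-colour Agilent mouse arrays of 62976 spots, 1 per group as the labels name them. The authors extracted the deposited intensities with Feature Extraction 12.0.3.1, per the file headers, with background subtraction and a spatial correction and without scaling between arrays. The array design was built on mm9. The deposited files also held flags for control spots, outlier spots and spots well above background, each 0 or 1. The deposited table of the whole series held unscaled intensity as well: over 99.9% of its values were within 0.01 (log2) of the spot mean.

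Control spots and outlier spots were left out, log2 intensities of a probe's spots were averaged, and the 75th percentile of the 56605 non-control probes was subtracted, as the methods do. Of 47837 accessions, 25126 matched a RefSeq gene table, used for names. The brightest probe stood for a gene, which gave 45616 features. A feature was counted where the brighter array gave a signal over 50, the minimum of the methods for these cells. With 1 array per group no test was possible.

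On the arrays, 46.7 to 48.5% of the probes were well above background, and no spot was saturated. The number of arrays limits the precision. The error is the SD between spots of 422 probes printed at least 10 times, controls included. It was 0.19 (log2) between log2 signals of 6 and 8, 0.10 between 8 and 10 and 0.08 between 10 and 12, and the last 2 ranges rest on 9 and 12 pairs of a probe and an array. The 3 arrays shared 1 slide and 1 scan, so their place on the slide and the group cannot be told apart.

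The members, the gene lists and the markers were chosen with earlier results of these data known. The named genes were all members, and from each further list the highest and lowest difference with Mst1r vector and the first gene without a measured level. Irf1, Socs1 and Stat2, outside that rule, were named after their values were seen. A pathway gene and a marker gene are not reported here. The scripts were tested on simulated data. Python 3.11.15, and R 4.3.3 with limma 3.58.1 for quantile and normexp values, were used, and 12 alternatives were run.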

Additional observations from a re-analysis of the deposited data

How the results depend on the processing

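Each result was recomputed under 12 alternatives of scaling, normalization, background correction, filter, probe choice, array rows, outlier spots and source of the values. No paired analysis was possible because each group held 1 array. The count of members at least 1.5-fold higher with Mst1r vector than with empty vector stayed at 4, except in the lower rows alone, where it was 1 of 6 (4.77% of features). Their median was 0.24 without scaling. The median with Slpi vector against empty vector was -0.0064 under median scaling and -0.41 under spike-in scaling. For Mst1r vector against Slpi vector, the median was 0.65 without scaling and 0.54 in the lower rows, where 3 of 6 members were at least 1.5-fold higher, against 5.02% of features well above background there. That count over all rows ran from 5 to 8 of 10 over the scalings, against 7.15% of features in the main setting. Shares of features under the other scalings were not counted. The median of all features moved with the scalings. For Mst1r vector against Slpi vector it moved by -0.15 without scaling, -0.13 under median and 0.13 under spike-in scaling. The counts of members there were 5, 5 and 8. It moved by -0.23 without scaling (Mst1r vector against empty vector), and by 0.16 under median and -0.24 under spike-in scaling (Slpi vector against empty vector). The filters, the choice of probe and the restriction to the lower rows left most single-member values as they were by construction. Under the 6 settings of scaling, normalization and background correction, 121 of 180 single-member values moved by less than the SD between spots, 59 moved by more, and 0 that had reached 1.5-fold changed sign. The log2 difference of Ifit3 between Mst1r vector and empty vector ran from 1.56 to 1.83 where its probe was kept, and that of Rsad2 from 1.41 to 1.67. With 1 array per group, the spread between cultures is unknown, and a difference within the error between spots was not detectable.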

Other observations

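The genes whose pair of differences lay nearest to that of Ifit3 were sought among 12408 features with a symbol that were well above background on all arrays and outside the lists used above. The measure was the distance between the log2 differences of Mst1r vector and of Slpi vector from empty vector, which rests on 3 arrays. The nearest was Ybx2, which encodes a germ cell nucleic acid-binding protein, with signals of 418, 1201 and 369 and a distance of 0.079. Cebpd, a transcription factor of the acute phase response, followed with 878, 2646 and 787 and a distance of 0.093. The next were Ccrl2, a chemokine-binding receptor, at 0.10, Csf3, the granulocyte colony-stimulating factor, at 0.11, and the kinase Pak1 at 0.11. These last 3 were dim on the empty vector array, at 43.9, 56.8 and 44.2, and the SD between spots of their difference was 0.42. All 5 were highest with Mst1r vector, which the search itself fixed.

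A probe of the interferon receptor chain Ifnar1 in the upper rows (row 104) gave 42.8, 177 and 31.9 on the empty, Mst1r and Slpi vector arrays, a log2 difference of 2.28 ± 0.42 with Mst1r vector. The other Ifnar1 probes, in rows 261 and 287, gave differences of 0.20 ± 0.14 and -0.18 ± 0.14, so the 3 probes disagreed. This gene was named after its values were seen.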
